A study of Mus musculus with 6 samples.

Results

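The Hox genes of the mouse are the homeobox transcription factor genes of the Hoxa, Hoxb, Hoxc and Hoxd clusters. They were taken from the deposited count table by symbol, as every row named Hoxa, Hoxb, Hoxc or Hoxd followed by a number. This gave 40 rows of 54532, which carry 39 symbols because Hoxd4 stands in the table under 2 identifiers. There were 11 rows in Hoxa, 10 in Hoxb, 9 in Hoxc and 10 in Hoxd. RNA came from the abdominal aorta of mice lacking Olfr2 (knockout, KO) and of wild type (WT) mice, taken at day 7 once an aneurysm (a widened stretch of artery) had been induced in both, with 3 libraries per genotype. Olfr2 is one of the odorant receptor genes, whose products signal through G proteins. The labels give no strain, age, Cre line or method of induction. They give each library its own code, but do not say that a code stands for a single animal. A p-value here therefore refers to variation among libraries. Every pair of libraries differed by more than counting error (chi-square per degree of freedom 25.6 or more), and how much of this is technical is not known.

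Hox proteins bind DNA through a homeodomain, usually with partner homeodomain proteins of the Pbx, Meis and Prep families, and in the embryo they set the identity of tissue along the head-to-tail axis. Within each cluster all genes are transcribed in the same direction, and their order matches their domain. Genes with a low paralogue number, at the 3′ end, reach furthest towards the head, and genes with a high number, at the 5′ end, are limited to the tail end. Adult smooth muscle cells and fibroblasts keep part of this pattern, and Hox expression is used as a mark of where along the aorta a cell lies.

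Library totals ranged from 17248918 to 21872027 counts, and the Hox rows together held 3398 to 4783 reads per library. Olfr2 had 0 counts in all 6 libraries, which leaves the genotype labels unchecked by the deleted gene. Where no read was found, up to 3 could still be expected from counting error alone. That limit was 0.14 to 0.182 CPM depending on the library (CPM is the count of a gene relative to the library size, here scaled by the trimmed mean of M-values, TMM). Where a value is given for each library, replicates 1, 2 and 3 of a genotype follow in that order. Smooth muscle, fibroblast and endothelial markers were present, with 10 of 10 tested in each list. Of the smooth muscle markers 9 of 10 had a higher mean in KO. The summed smooth muscle markers stood at 2840, 1840 and 2360 CPM in the KO libraries, against 1220, 1590 and 1080 in the WT libraries. The summed skeletal muscle markers stood at 1200 CPM in KO replicate 3 and at 5.18 to 19 CPM in the other 5 libraries. The summed white adipocyte markers stood at 2530, 1530 and 1730 CPM in the KO libraries, against 367, 374 and 1580 in the WT libraries. Of the white adipocyte markers 10 of 10 had a higher mean in KO. The summed fibroblast markers ran from 36200 to 46900 CPM in KO and from 44300 to 55700 CPM in WT. The part of these tissues in the Hox results was not tested, beyond fits with a white adipocyte score as covariate. In such bulk samples fewer cells of a type and less RNA per cell cannot be told apart.

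In the aortas of both genotypes the genes numbered 4 to 10 held most of the signal, and those numbered 12 and 13 were at or close to 0. Levels of different genes are given as CPM per kilobase of annotated exon. Paralogues 4 to 8 made up 64.1 ± 1.81% of the summed Hox level in KO and 62.3 ± 2.40% in WT (SD, n = 3 each). Paralogues 9 and 10 made up 27.2 ± 0.720% in KO and 28.3 ± 1.70% in WT. Paralogues 1 to 3 made up 6.04 ± 0.506% in KO and 7.27 ± 0.699% in WT, and paralogues 11 to 13 made up 2.65 ± 0.740% in KO and 2.16 ± 0.687% in WT. The libraries of the genotypes overlapped in each of these bands on the summed-level scale. The mean paralogue number, weighted by level, was 7.06, 6.95 and 6.98 in the KO libraries and 6.86, 7.05 and 6.95 in the WT libraries. That mean also depends on which numbers have a gene. Paralogue 6 held the largest share, 18.9% over all libraries, and paralogue 7 held 11.1%. Within Hoxc the weighted mean in KO libraries, at 7.71, 7.64 and 7.73, lay below that in WT libraries, at 7.75, 7.91 and 7.83. Of the summed levels by single paralogue number, 3 of 13 did not overlap between the genotypes, beside 16.8% of all tested genes taken singly. Among them paralogue 7 was lower and paralogue 8 higher in all KO libraries. The sum of paralogue 7 was 8.36, 9.04 and 8.1 CPM per kilobase in the KO libraries and 9.5, 10.5 and 9.14 in the WT libraries. No test was made on these sums and shares.

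**Figure D1:**
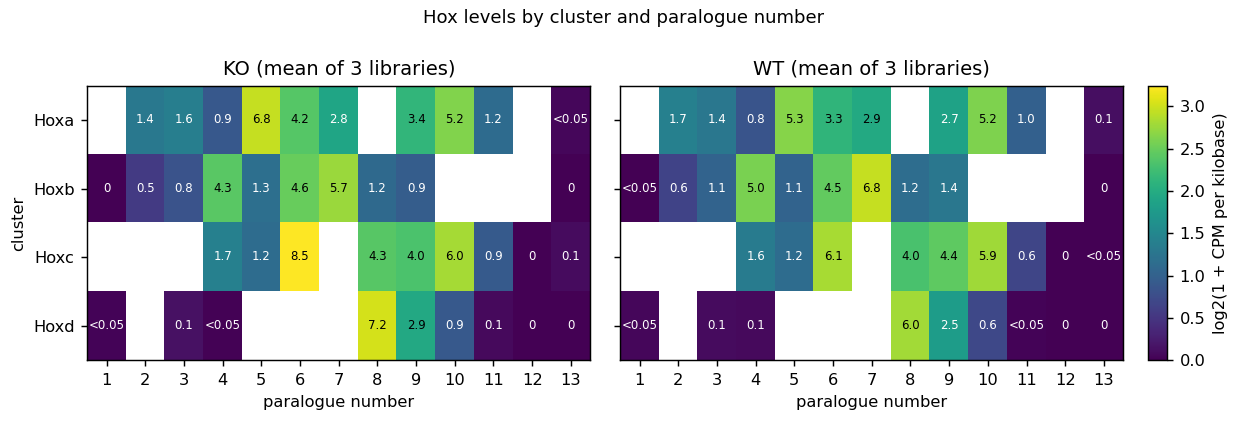
Mean level of Hox genes as CPM per kilobase of exon, printed in each cell, for KO (left) and WT (right), with cluster on the vertical axis and paralogue number on the horizontal axis. Colour is log2(1 + CPM per kilobase) and white cells are positions with no gene or none shown; in both genotypes the bright cells lie at numbers 4 to 10 and the cells at numbers 12 and 13 are dark.

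The summed Hox level was near 80 in all libraries but 1. It was 79.7, 96.2 and 80.1 CPM per kilobase in the KO libraries and 79.0, 80.9 and 79.9 in the WT libraries. KO replicate 2 stood above the other 5 libraries, and among the KO libraries it held the highest value for 18 of 28 tested Hox genes. The Hoxa cluster supplied 33.0 ± 3.85% of the sum in KO and 31.7 ± 0.990% in WT, and the Hoxc cluster 31.2 ± 0.148% in KO and 29.6 ± 0.707% in WT (SD, n = 3 each). The Hoxb cluster supplied 22.7 ± 2.12% in KO and 27.2 ± 1.52% in WT, and the Hoxd cluster 13.2 ± 1.79% in KO and 11.6 ± 2.37% in WT. The Hoxb share was lower in all KO libraries than in all WT libraries, at 21.2, 21.7 and 25.1% in the KO libraries and 27.7, 28.3 and 25.4% in the WT libraries. KO replicate 3 and WT replicate 3 were close to each other in this share. The Hoxc share was higher in all KO libraries, between 31 and 31.3%, than in all WT libraries, at 28.8 to 30.2%. On the summed-level scale Hoxc was also higher in all KO libraries, but Hoxb overlapped. There KO replicate 2, at 20.9 CPM per kilobase, lay above WT replicate 3, at 20.3. Of all tested genes taken singly, 16.8% did not overlap, and no test was made on these shares and sums. Shares of 1 total depend on each other, so a lower Hoxb share goes with a higher share elsewhere.

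**Figure D2:**
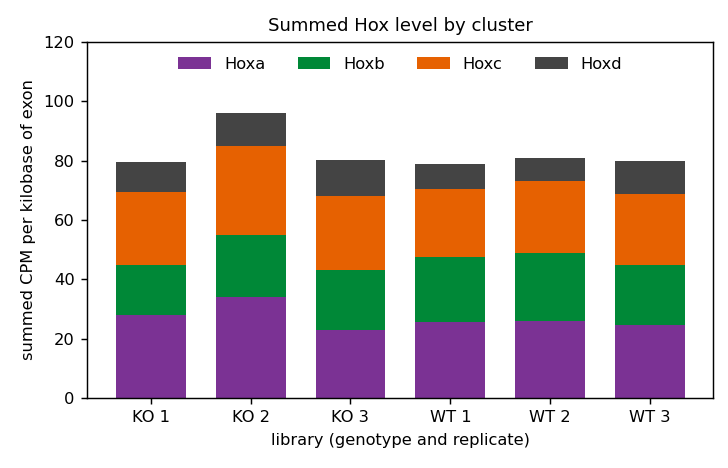
Summed CPM per kilobase of exon over 39 Hox rows, stacked by cluster (vertical axis, from 0), in each of the 3 KO and 3 WT libraries. KO replicate 2 reaches 96.2 and the other libraries reach 79.0 to 80.9.

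The comparison of KO with WT asks whether this position code of the aneurysm tissue differs where Olfr2 is missing. Of 40 rows, 28 passed the filter on low counts, 10 in Hoxa, 8 in Hoxb, 7 in Hoxc and 3 in Hoxd. None of these 28 passed the quasi-likelihood test of edgeR at an adjusted p under 0.05 (Benjamini-Hochberg over all 16237 tested genes), beside 0.0123% of all genes. The count was also 0 by DESeq2, which called 2.78% of all tested genes, and 0 by limma-voom, which called 0.0%. At an unadjusted p under 0.05 there was 1 Hox gene of 28, or 3.57%, by each of the 3 tools, beside 11.3% of all tested genes by edgeR. That gene was higher in KO, as were 5.23% of all tested genes, and no Hox gene was lower in KO at that threshold, beside 6.08% of all. KO and WT did not overlap for 2 Hox genes, or 7.14%, beside 16.8% of all tested genes. KO was above WT for 1 of these, beside 7.83% of all genes, and below WT for the other, beside 9.01%. The adjusted p-values of the Hox genes ran from 0.315 to 0.998.

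Fold changes were small on the log2 scale. They ran from -0.62 for Hoxb9 to 0.55 for Hoxc11, with a median of 0.063 beside 0.006 for all tested genes. The median size of the change, whatever its sign, was 0.233 for the Hox genes and 0.16 for all genes. A higher mean in KO was found for 17 Hox genes and a lower mean for 11, beside 51.2% of all tested genes with a higher mean and 48.8% with a lower one. For 19 of 28 genes the 95% interval of the fold change lay inside a 2-fold change in either direction. For the other 9, among them Hoxa6, Hoxa11, Hoxb2, Hoxb3, Hoxb5, Hoxb9, Hoxc11 and Hoxd10, the interval reached 2-fold, so a change of that size in 1 direction was not excluded by these libraries. Standard errors ran from 0.16 to 0.43 on the log2 scale.

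**Figure D3:**
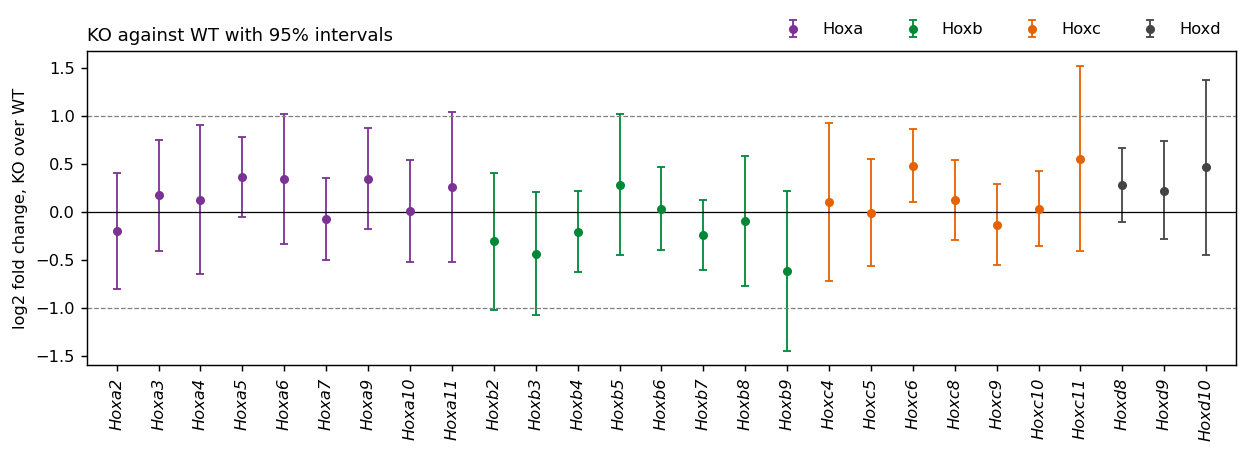
Log2 fold change of KO over WT (vertical axis) for 27 tested Hox genes with its 95% interval from edgeR's quasi-likelihood fit (bars), coloured by cluster and ordered by paralogue number within it; dashed lines mark a 2-fold change. All points lie between -0.62 and 0.55, and the intervals of 8 genes reach a dashed line.

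By cluster the medians differed in sign, and which cluster was negative changed with a covariate. In Hoxb 2 of 8 tested genes had a higher mean in KO and the median log2 fold change was -0.226. In Hoxa 7 of 10 were higher with a median of 0.147, in Hoxc 5 of 7 with a median of 0.098, and in Hoxd 3 of 3 with a median of 0.275. These medians are descriptions. By position, 1 of 5 tested genes of paralogues 1 to 3 had a higher mean in KO (median -0.31), against 9 of 14 for paralogues 4 to 8 (0.11), 5 of 7 for paralogues 9 and 10 (0.03) and 2 of 2 for paralogue 11 (0.41). Without KO replicate 2 the median over all tested members was -0.07, that of Hoxa was -0.13 and that of Hoxc was -0.02, so the sign of all 3 rested on that library. With a white adipocyte score, computed from the fat markers, as covariate the median was 0.04 in Hoxb, -0.04 in Hoxc and 0.02 in Hoxd, so the signs of Hoxb and Hoxc turned. The summed fat markers of WT replicates 1 and 2 lay far below those of all KO libraries, so fat score and genotype are partly confounded. Fits with this covariate therefore estimate the genotype difference poorly, and their values here and below are not differences freed of fat.

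The anterior genes came first in order and were low. Hoxb1, which patterns the hindbrain, had 1 read in all 6 libraries together. Hoxd1 had 2 reads in KO replicate 1, 4 in WT replicate 3 and 0 in the other libraries. Hoxa2, which sets the identity of the second pharyngeal arch, stood at 1.45 ± 0.275 CPM per kilobase in KO and 1.66 ± 0.2 in WT (SD, n = 3 each). Hoxb2 stood at 0.395, 0.543 and 0.454 CPM per kilobase in the KO libraries and 0.655, 0.643 and 0.429 in the WT libraries. WT replicate 3 lay inside the KO range, and the log2 fold change was -0.31 (SE 0.31). It was -0.21 without WT replicate 1, -0.48 without WT replicate 3 and 0.20 with the fat score as covariate.

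Paralogue 3 takes part in forming the pharyngeal organs and the neck. Hoxa3, needed for the thymus and the parathyroid glands, stood at 1.61 ± 0.614 CPM per kilobase in KO and 1.43 ± 0.0785 in WT (SD, n = 3 each). KO replicate 2, at 2.31, was the highest library. Hoxb3 stood at 0.756, 0.987 and 0.581 CPM per kilobase in the KO libraries and 1.10, 1.24 and 0.812 in the WT libraries. The genotypes overlapped at the lowest WT library, with a log2 fold change of -0.44 (SE 0.28), and 52.9% of the exon bases of Hoxb3 overlap its antisense gene Hoxb3os, so its count is uncertain. Without KO replicate 3 the log2 fold change of Hoxb3 was -0.27, and with the fat score as covariate it was -0.09. Hoxd3 had 2 to 12 reads per library, and 62.8% of its exon bases overlap other genes.

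Paralogue 4 was carried by Hoxb4, a gene known for the expansion of blood stem cells. It stood at 3.26, 4.76 and 4.98 CPM per kilobase in the KO libraries and 4.94, 4.99 and 5.16 in the WT libraries. KO replicate 1 was low, KO replicate 2 lay just below the WT range and KO replicate 3 inside it. The log2 fold change of Hoxb4 was -0.21 (SE 0.18), -0.046 without KO replicate 1 and -0.32 without KO replicate 3. Hoxc4 stood at 1.66 ± 0.748 CPM per kilobase in KO and 1.55 ± 0.205 in WT (SD, n = 3 each), and Hoxa4 at 0.865 ± 0.242 in KO and 0.792 ± 0.0306 in WT. Both rows of Hoxd4 were close to 0. The row that the annotation places at the Hoxd4 locus had 0 to 6 reads per library and the other, which has no position in it, had 2 to 10. Of the exon bases of the placed row 52.3% overlap other genes, so its count may be low to an unknown degree. Gm28230, with 95.8% of its exon bases inside Hoxd3 and Hoxd4, held 53 reads in the KO libraries together and 40 in the WT libraries.

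Paralogues 5 and 6 act in the neck and thorax, and Hoxa5 is needed for the trachea and lung. Hoxa5 (ENSMUSG00000038253, chromosome 6, 52201754 to 52204587) stood at 6.79, 7.85 and 5.74 CPM per kilobase in the KO libraries and 5.76, 4.39 and 5.70 in the WT libraries. KO replicate 3 lay among the WT libraries. The log2 fold change was 0.36 (SE 0.18, edgeR adjusted p = 0.515). Hoxb5 and Hoxc5 were lower, at 1.27 ± 0.410 and 1.21 ± 0.252 CPM per kilobase in KO and 1.05 ± 0.299 and 1.22 ± 0.0931 in WT (SD, n = 3 each).

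Hoxc6 had the highest level of all Hox genes and was the gene that passed 0.05 before adjustment. It lies on chromosome 15, 102998257 to 103011881 (ENSMUSG00000001661, plus strand), and its exons overlap no other gene. It stood at 6.60, 9.45 and 9.37 CPM per kilobase in the KO libraries and 6.34, 5.79 and 6.07 in the WT libraries. Every KO value exceeded every WT value, but KO replicate 1 was close to the highest WT library. The mean was 8.47 ± 1.62 in KO and 6.07 ± 0.276 in WT (SD, n = 3 each), and its log2 fold change was 0.48 (SE 0.17, 95% interval 0.10 to 0.86). With an adjusted p of 0.315 in edgeR it did not pass. Leaving out single libraries gave log2 fold changes of 0.40 to 0.63.

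The other genes of paralogue 6 lie in the same segment of their clusters. Hoxa6 stood at 3.55, 5.33 and 3.84 CPM per kilobase in the KO libraries and 3.86, 2.29 and 3.89 in the WT libraries, with a log2 fold change of 0.34 (SE 0.30). That of Hoxa6 was 0.15 without KO replicate 2, 0.13 without WT replicate 2 and 0.53 without replicate 3 of both genotypes. Hoxb6 stood at 3.74, 5.05 and 5.03 CPM per kilobase in the KO libraries and 4.04, 5.12 and 4.43 in the WT libraries. The genotypes overlapped for both, and the log2 fold change of Hoxb6 was 0.03 (SE 0.19).

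Hoxb7 was the other gene whose genotypes did not overlap. It stood at 5.46, 5.93 and 5.83 CPM per kilobase in the KO libraries and 6.30, 7.70 and 6.37 in the WT libraries. All KO libraries were below all WT libraries, with a log2 fold change of -0.24 (SE 0.16, 95% interval -0.61 to 0.12, edgeR adjusted p = 0.648). Without WT replicate 2 the log2 fold change was -0.14. Hoxa7 stood at 2.76 ± 0.438 CPM per kilobase in KO and 2.91 ± 0.25 in WT (SD, n = 3 each), with 20.4% of its exon bases shared with Hoxaas3.

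Paralogue 8, which acts in the thorax, was led by Hoxd8. It stood at 6.5, 7.31 and 7.82 CPM per kilobase in the KO libraries and 5.92, 4.84 and 7.11 in the WT libraries. WT replicate 3 lay inside the KO range, and the log2 fold change was 0.28 (SE 0.17). For Hoxd8 it was 0.15 without WT replicate 2, 0.42 without WT replicate 3 and 0.10 with the fat score as covariate. Hoxc8, a marker of thoracic identity that is also expressed in white fat, stood at 4.38, 5.13 and 3.41 CPM per kilobase in the KO libraries and 3.82, 4.35 and 3.70 in the WT libraries. The genotypes overlapped, and the log2 fold change was 0.12 (SE 0.18).

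**Figure D4:**
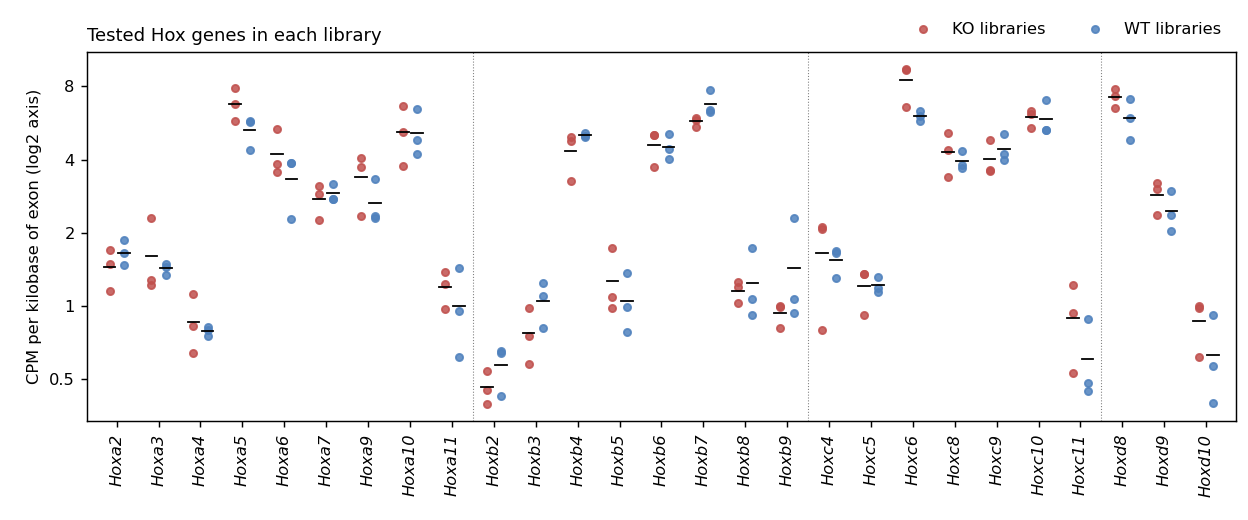
Level of 27 tested Hox genes in every library (points, KO at left and WT at right of each position) with the mean of 3 libraries (black bar), as CPM per kilobase of exon on a log2 axis, grouped by cluster. The groups are apart for Hoxc6, from 6.60 to 9.45 in KO and 5.79 to 6.34 in WT, and for Hoxb7, from 5.46 to 5.93 in KO and 6.30 to 7.70 in WT, and overlap for the other genes.

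Paralogues 9 and 10 mark the step from thorax to lumbar trunk, and Hoxa9 and Hoxa10 are also active in blood progenitors. Hoxa10 stood at 5.21, 6.63 and 3.75 CPM per kilobase in the KO libraries and 4.82, 6.43 and 4.21 in the WT libraries. The WT range lay inside the KO range, and the log2 fold change was 0.01 (SE 0.23). Hoxa9 stood at 3.72, 4.07 and 2.35 CPM per kilobase in the KO libraries and 2.31, 3.32 and 2.35 in the WT libraries, a log2 fold change of 0.34 (SE 0.23). KO replicate 3 lay with the lower WT libraries, and the log2 fold change of Hoxa9 was 0.19 without KO replicate 2, 0.535 without WT replicate 2 and 0.55 without KO replicate 3. The summed leukocyte markers stood at 5920, 7820 and 8270 CPM in the KO libraries, against 6680, 3090 and 6920 in the WT libraries, and their part in these values was not tested.

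Hoxc9 stood at 3.64, 4.82 and 3.61 CPM per kilobase in the KO libraries and 4.21, 3.97 and 5.09 in the WT libraries, a log2 fold change of -0.14 (SE 0.19). Hoxc10 stood at 5.38, 6.19 and 6.35 CPM per kilobase in the KO libraries and 5.30, 7.02 and 5.28 in the WT libraries, a log2 fold change of 0.03 (SE 0.17). The genotypes overlapped for both. Hoxc10, together with its paralogues, takes part in patterning the lumbar region. Hoxd9 stood at 2.87 ± 0.447 CPM per kilobase in KO and 2.46 ± 0.469 in WT (SD, n = 3 each). Hoxd10 stood at 0.979, 0.620 and 1.0 CPM per kilobase in the KO libraries and 0.569, 0.401 and 0.919 in the WT libraries, a log2 fold change of 0.46 (SE 0.40). That of Hoxd10 was 0.22 without WT replicate 2, 0.83 without WT replicate 3, 0.71 without replicate 3 of both genotypes and -0.11 with the fat score as covariate.

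The code ended at paralogue 11, a group needed for the kidney and the sacral region. Hoxa11 stood at 1.20 ± 0.203 CPM per kilobase in KO and 1.0 ± 0.409 in WT (SD, n = 3 each), with 35.0% of its exon bases shared with Hoxa11os. Hoxc11 had the highest log2 fold change of the Hox genes, 0.55 (SE 0.43, 95% interval -0.41 to 1.52). It stood at 1.22, 0.937 and 0.531 CPM per kilobase in the KO libraries and 0.484, 0.450 and 0.883 in the WT libraries, so each genotype held a library inside the range of the other. Without KO replicate 1 the log2 fold change of Hoxc11 was 0.27, without KO replicate 3 it was 0.83, without WT replicate 3 it was 0.93, without replicate 3 of both genotypes it was 1.20, and with the fat score as covariate it was -0.26. Hoxd11 had 0 to 9 reads per library.

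Past paralogue 11 the clusters were close to silent. Hoxc12 and Hoxd12 had 0 reads in all 6 libraries, as did Hoxb13 and Hoxd13. Paralogue 13 acts at the end of the body axis, in the digits, hindgut and urogenital tract. Hoxa13 had 0, 4 and 2 reads in the KO libraries and 0, 11 and 0 in the WT libraries, and Hoxc13 had 3, 6 and 0 in the KO libraries and 0, 1 and 0 in the WT libraries. Reads of paralogue 13 as a group numbered 3, 10 and 2 in the KO libraries and 0, 12 and 0 in the WT libraries, so they were seen in libraries of both genotypes and missing from some of them.

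The Hoxd cluster on chromosome 2, 74668310 to 74765142, spans both states, with Hoxd8 the second highest Hox gene and Hoxd13 at 0. Their promoters are shown because these genes are the ends of that range within 1 cluster. Both are RefSeq sequences on GRCm38.p6, plus strand, each 300 bases around the annotated start, with each CpG in capitals.
Hoxd8, chr2:74704365-74704664: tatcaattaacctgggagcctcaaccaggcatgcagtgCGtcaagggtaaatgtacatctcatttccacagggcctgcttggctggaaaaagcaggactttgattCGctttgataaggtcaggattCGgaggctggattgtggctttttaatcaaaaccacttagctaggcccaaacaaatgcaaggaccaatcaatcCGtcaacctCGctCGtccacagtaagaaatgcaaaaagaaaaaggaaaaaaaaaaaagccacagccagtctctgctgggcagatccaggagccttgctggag
Hoxd13, chr2:74667975-74668274: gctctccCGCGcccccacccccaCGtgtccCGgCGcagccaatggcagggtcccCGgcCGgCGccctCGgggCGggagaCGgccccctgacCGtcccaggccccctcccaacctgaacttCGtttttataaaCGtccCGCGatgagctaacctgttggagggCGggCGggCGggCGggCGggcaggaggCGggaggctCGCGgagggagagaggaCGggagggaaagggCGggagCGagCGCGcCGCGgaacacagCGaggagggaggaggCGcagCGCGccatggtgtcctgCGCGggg
The Hoxd13 window holds 37 CpG at 74.3% G and C, and the Hoxd8 window holds 6 CpG at 46.7%. The silent gene of this pair had the denser CpG window, but the other windows of the cluster varied among tested and untested genes alike. The tested Hoxd9 and Hoxd10 had 20 and 22 CpG. The untested Hoxd1, Hoxd3, Hoxd4 and Hoxd12 had 29, 20, 4 and 13, and the windows of the untested Hoxd11 had 4 and 25. Over the 24 windows matched, of 22 Hox genes, the median was 14.5 CpG, beside 7.0 over all 32851 promoter windows of the same length. The composite site of Hox with Pbx, searched as TGATNNAT on both strands, was found in 16.7% of the Hox windows and 8.8% of all windows. TATAAA, on both strands, was found in 16.7% of the Hox windows, Hoxd13 among them, and 13.6% of all windows.

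The genes at the 5′ end of the expressed Hoxb segment were high in 1 WT library, a pattern chosen after its values were seen. Hoxb9 (ENSMUSG00000020875, chromosome 11, 96271457 to 96276595) stood at 1.0, 0.815 and 0.996 CPM per kilobase in the KO libraries and 2.30, 0.942 and 1.07 in the WT libraries. WT replicate 1 stood apart and the other 5 libraries lay together. Its log2 fold change was -0.62 (SE 0.37, edgeR adjusted p = 0.586), the lowest of the Hox genes, and without WT replicate 1 it was -0.10. With the fat score as a covariate it was -0.03. Hoxb8 had 1.20, 1.03 and 1.26 CPM per kilobase in the KO libraries and 1.73, 0.92 and 1.07 in the WT libraries, so WT replicate 1 was again the highest.

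The same library was high at the neighbouring genes Gm53 and Mir196a-1 but not at Gm11539, the next gene upstream. The noncoding gene Gm53 stood at 1.38, 1.94 and 1.96 CPM in the KO libraries, against 3.97, 0.667 and 1.32 in the WT libraries. The hairpin gene Mir196a-1, between Gm53 and Hoxb9, had 4, 6 and 7 reads in the KO libraries and 12, 2 and 2 in the WT libraries. Libraries of poly-T selected RNA do not measure the mature miRNA. WT replicate 1 over the median of the other 5 libraries was 2.88-fold for Gm53, 2.84-fold for Mir196a-1, 2.31-fold for Hoxb9 and 1.62-fold for Hoxb8. At Gm11539, which had 1 to 4 reads per library, the ratio was 0.354. It rests on 1 read in WT replicate 1, and WT replicate 3 also had 1 read. On the other side Hoxb7 had a ratio of 1.06, and Hoxb6 and Hoxb5 had ratios of 0.803 and 0.715. The antisense gene Hoxb5os (1.60) and Hoxb2 (1.44) were also highest in WT replicate 1. The exons of Gm53, Mir196a-1, Hoxb9 and Hoxb8 overlap no other gene in the annotation.

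**Figure D5:**
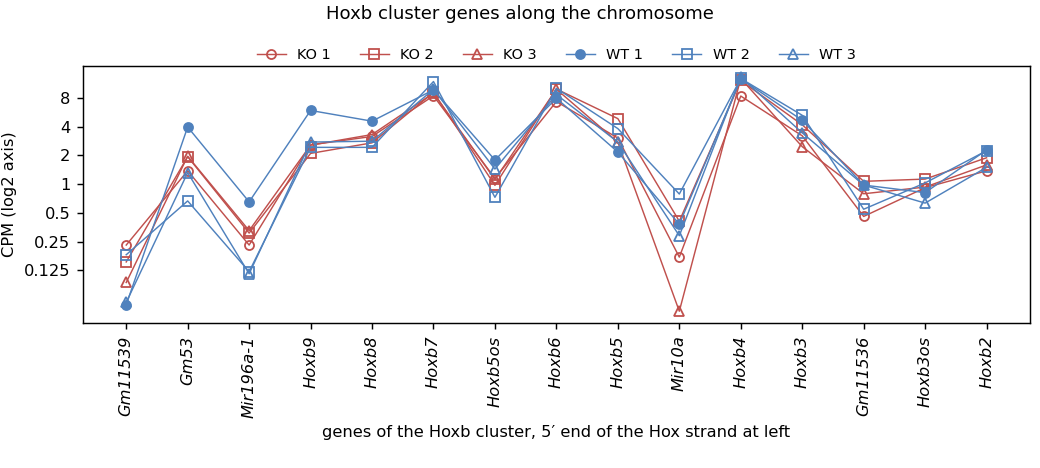
CPM on a log2 axis of each gene of the Hoxb cluster with reads in all 6 libraries, in order along chromosome 11 from the 5′ end of the Hox strand at left (equal spacing, not to scale), with KO in red and WT in blue, marked by replicate. WT replicate 1 (filled) is the highest library at Gm53, Mir196a-1, Hoxb9 and Hoxb8 and lies among the others at Hoxb7.

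The miR-10 and miR-196 sequences of the clusters are shown because Mir196a-1 lies in that segment and a match to it lies in Hoxb8. The mature sequences are from RefSeq on GRCm38.p6, with the seed, bases 2 to 8, in capitals. They fall into 2 seed groups, miR-10 and miR-196. The other annotated miRNA genes of the clusters, Mir615 and Gm44463, were not searched. The miR-196a sequence is also encoded in the Hoxc cluster, at chr15:102973365-102973386 on the plus strand.
mmu-miR-196a-5p, chr11:96265187-96265208, plus strand: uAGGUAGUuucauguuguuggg
mmu-miR-196b-5p, chr6:52230129-52230150, minus strand: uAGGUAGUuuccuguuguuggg
mmu-miR-10a-5p, chr11:96317186-96317208, plus strand: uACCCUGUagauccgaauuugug
mmu-miR-10b-5p, chr2:74726074-74726096, plus strand: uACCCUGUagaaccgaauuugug
The best match to miR-196a in the Hox 3′ UTRs, without a required seed match, was in Hoxb8. It is written as DNA of the GENCODE transcript, 5′ to 3′, with the bases opposite the seed in capitals.
Hoxb8 site, chr11:96284888-96284909, plus strand: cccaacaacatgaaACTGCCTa
All 22 bases can pair with the miRNA, 21 as Watson-Crick pairs and 1 as a G-U pair, and 2 of 20753 3′ UTRs hold a site with as many pairs. The exact seed match ACTACCT was found in 8 of 38 Hox 3′ UTRs (21.1%) and 5.6% of all, in Hoxa4, Hoxa5, Hoxa7, Hoxa9, Hoxb1, Hoxb6, Hoxb7 and Hoxc8. The miR-10 seed match ACAGGGT was found in 4 Hox 3′ UTRs (10.5%) and 11.4% of all, among them those of Hoxa3, Hoxb3 and Hoxd1. These matches are descriptions, and the regulation of these genes was not measured.

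Of 46 other genes inside the clusters 14 were tested. Of these 0 passed in edgeR, beside 0.0123% of all tested genes, and 0 had an unadjusted p under 0.05, beside 11.3%. Hotairm1, a noncoding RNA of the Hoxa cluster, stood at 4.36, 3.63 and 2.94 CPM in the KO libraries, against 2.88, 2.73 and 3.22 in the WT libraries, a log2 fold change of 0.30 (SE 0.25). The other log2 fold changes are given in parentheses. Hoxaas2 (0.12), Hoxaas3 (0.01), Gm15050 (0.16), Hoxa11os (0.26), Gm27861 (0.26), Gm27477 (0.11) and 5730596B20Rik (0.34) were tested in Hoxa. Hoxb5os (-0.29), Hoxb3os (0.26), Gm53 (-0.18) and Gm11536 (-0.10) were tested in Hoxb, and Hoxd3os1 (0.31) and Gm28230 (0.26) in Hoxd. Hotair, the noncoding RNA of the Hoxc cluster, had 0 to 9 reads per library. Of the other cluster genes, 10 have all of their exon bases inside exons of further genes, and all 10 had 0 counts in every library. Of 39 Hox rows with a position, 16 share exon bases with another gene, so their counts may be low to an unknown degree.

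The genes of the proteins that bind DNA with Hox were compared next. The shares of all tested genes beside the counts that follow are 0.0123% called by edgeR, 11.3% at an unadjusted p under 0.05 and 16.8% without overlap between KO and WT. All 9 Pbx, Meis and Pknox genes were tested, 6 with a higher mean in KO and 3 with a lower, and 0 passed in edgeR, with 0 at an unadjusted p under 0.05. Meis1, which binds DNA with Hox and Pbx, averaged 21.4 ± 4.25 CPM in KO, against 22 ± 2.15 in WT (SD, n = 3 each). The log2 fold change was 0.14 (SE 0.13) for Pknox1, 0.13 (SE 0.16) for Meis3 and -0.10 (SE 0.17) for Meis2, which bind DNA in the same complexes.

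Chromatin regulators that keep Hox genes on or off were also compared. Of 12 trithorax-type and related activators 0 passed in edgeR and 0 had an unadjusted p under 0.05. Kmt2a, the methyltransferase that maintains Hox expression, averaged 96.6 ± 19.3 CPM in KO, against 93.3 ± 6.26 in WT (SD, n = 3 each). The smallest unadjusted p-values were those of Men1 (log2 fold change -0.23), Kat6a (-0.14), Kdm6a (-0.14) and Psip1 (0.11). Of 19 Polycomb genes and partners 0 passed and 1 had an unadjusted p under 0.05, a share below the 11.3% of all tested genes. This was Bap1, which removes ubiquitin from histone H2A, with a mean of 58.3 ± 2.77 CPM in KO, against 68.9 ± 0.941 in WT (SD, n = 3 each), and its log2 fold change was -0.24 (SE 0.10, edgeR adjusted p = 0.382). Phc2 had a log2 fold change of -0.27 and Jarid2 of -0.23. Over this list 9 genes had a higher mean in KO and 10 a lower. Ezh2, the methyltransferase of Polycomb, had a log2 fold change of 0.09 (SE 0.12).

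Signals and factors that act upstream of Hox in the embryo gave no call either. Of 18 listed, 12 were tested, 4 with a higher mean in KO and 8 with a lower, and 0 passed in edgeR, with 0 at an unadjusted p under 0.05. Aldh1a3, an enzyme that makes retinoic acid, averaged 30.4 ± 1.85 CPM in KO, against 36.2 ± 2.41 in WT (SD, n = 3 each), and its KO libraries lay below its WT libraries. Cyp26b1, which breaks retinoic acid down, had a log2 fold change of -0.71 (SE 0.43), Rara of -0.19 and Gdf11 of 0.23. Of 10 ParaHox and other related homeobox genes 3 were tested, Meox1 (log2 fold change -0.30), Gbx2 (-0.42) and Meox2 (0.09), with 0 called and 0 at an unadjusted p under 0.05.

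Among 26 other transcription factors tied to body position, 16 were tested, 12 with a higher mean in KO, and 0 passed in edgeR. At an unadjusted p under 0.05 there was 1 of 16, a share below the 11.3% of all tested genes. This was Foxc1, a forkhead factor of the embryonic mesoderm and vessels. It averaged 23.6 ± 3.13 CPM in KO, against 16.6 ± 1.62 in WT (SD, n = 3 each), and its log2 fold change was 0.50 (SE 0.15, edgeR adjusted p = 0.246). For Foxc1 and its relative Foxc2 (log2 fold change 0.27, SE 0.13) KO and WT did not overlap, with KO higher, which makes 2 of 16 beside 16.8% of all tested genes. Tcf21 (log2 fold change 0.50, SE 0.29) and Hand2 (-0.80, SE 0.55) followed by unadjusted p. Prrx1, a factor of limb and trunk fibroblasts, averaged 172 ± 4.21 CPM in KO, against 191 ± 22.9 in WT.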

How the data were processed

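Libraries of poly-T selected RNA from abdominal aorta were sequenced, 3 per genotype, per the labels' protocols. The deposited table holds raw read counts per gene, with HISAT2 2.0.5, featureCounts 1.5.0-p3 and GRCm38 named in the submitters' processing notes. For the strand setting, the treatment of multi-mapping reads and the annotation release, nothing is given in the sources used here. Every row has a gene name, and no pair of libraries was a repeat (chi-square per degree of freedom 25.6 to 81).

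Positions, exon lengths and exon overlap came from GENCODE mouse release 21 (54495 of 54532 identifiers). Counts were filtered by filterByExpr (16237 genes kept), scaled by TMM and tested with edgeR 4.0.16 (quasi-likelihood, Benjamini-Hochberg over all tested genes, threshold 0.05) in R 4.3.3. The edgeR script was tested on simulated data. SE is the fold change divided by the square root of F. DESeq2 1.42.0 and limma 3.58.1 (voom) were alternatives, with other scalings and filters, a replicate block, a fat score covariate and libraries left out. The median log2 fold change of all genes was 0.006, and 0.04 under library size alone. Marker levels are summed CPM. Figures used matplotlib 3.10.9.

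Members, lists and tests were chosen with earlier results of these data known. The genes described in full were the 12 of highest level, the 5 highest and 5 lowest fold changes, the 10 of smallest p and those whose genotypes did not overlap, with up to 4 per partner list by p. Meis1, Kmt2a, Ezh2, Prrx1 and Hotair were named outside that rule, after their values were seen. Values of some genes are not reported here, though they stay in counts and sums.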

Additional observations from a re-analysis of the deposited data

How the results depend on the processing

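The count of called Hox genes was 0 under all 16 alternatives run, and so was that of the partner and regulator genes. The count at an unadjusted p under 0.05 was 1, and ranged from 0 to 2 with single libraries left out (0 without KO replicate 2, and 2 without KO replicate 3 or WT replicate 3). The median log2 fold change of the Hox genes was 0.06, with a range of -0.07 to 0.18 when single libraries were left out, and it was 0.18 without replicate 3 of both genotypes. With single libraries left out the median ran from -0.13 to 0.32 in Hoxa, -0.27 to -0.15 in Hoxb, -0.02 to 0.27 in Hoxc and 0.20 to 0.42 in Hoxd. When the fat score was added to the model it was 0.21 in Hoxa, 0.04 in Hoxb, -0.04 in Hoxc and 0.02 in Hoxd. The share of the summed level was 24.9% for Hoxa, 29.9% for Hoxb, 29.8% for Hoxc and 15.4% for Hoxd without the genes that share exon bases, which removes 7 of 11 Hoxa genes, against 32.3, 24.9, 30.4 and 12.4% with them.

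The label numbers did not pair the libraries: same-numbered deviations correlated at -0.10, -0.06 and -0.12, and no library correlated best with its own number. The replicate block gave 0 called Hox genes and a median of 0.03, and under it Hoxa10 stood at -0.0021.

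Signs of log2 fold changes near 0 turned, and the cause was not tested. With 1 library, or replicate 3 of both genotypes, left out, Hoxa10 ran from -0.20 to 0.20, Hoxb6 from -0.057 to 0.15, Hoxc8 from -0.019 to 0.27, Hoxc9 from -0.28 to 0.052 and Hoxc10 from -0.087 to 0.18. Hoxa10 was -0.0079 in limma-voom. With the fat score Hoxb2 was 0.20, Hoxc11 -0.26 and Hoxd10 -0.11. The other 270 of 288 alternatives for the Hox genes described in full kept the sign. Depth limits the 12 rows that were not tested.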
